A study of Mus musculus with 18 samples.

Results

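The elements described here are 86 rodent retroviral repeats of the ERVK class, out of 1365 repeat subfamilies measured. They were chosen by name. Each is classed as LTR/ERVK (84 rows) or as LTR/ERVK with a question mark (2 rows), and its name begins with RLTR. The RLTR9, RLTR10, RLTR11, RLTR13, RLTR17, RLTR30, RLTR44 and RLTRETN groups were left out. The 86 subfamilies carry 27 different RLTR numbers, from 1 subfamily for a number such as RLTR8 up to 16 for RLTR20, and 4 of them are internal parts (names ending in -int) against 82 long terminal repeats (LTRs). The 2 members with the question mark in their class are RLTR51A_Mm and RLTR51B_Mm.

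The study gave mouse cells the HSP90 inhibitor NVP-AUY922 (HSP90 is a chaperone that helps many signalling proteins fold) and sequenced poly(A) RNA from 18 libraries in 6 groups of 3. Treated embryonic stem cells (ESCs) received 100 nM for 24 h and are set against untreated ESCs, both grown in 2i medium and of the 129S1/CASTEiJ background. Treated neuronal progenitor cells (NPCs), at 50 nM for 24 h, are set against untreated NPCs of the same background, both grown with EGF and FGF. Treated bone-marrow-derived macrophages, at 500 nM for 24 h, are set against untreated macrophages, both derived with M-CSF and of the BALBC/C57BL6 background. Cell type, dose and, for macrophages, strain therefore change together. The labels do not say whether the 3 libraries of a group are separate cultures or animals. The spread behind each p-value is that between libraries and may be technical.

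Endogenous retroviruses are germline copies of past infections, in which a pair of LTRs flanks an internal part that once coded for the viral proteins. The LTR holds the promoter and the polyadenylation signal. Many copies have lost their internal part by recombination between the LTRs and remain as solitary LTRs, some of which act as promoters or enhancers of nearby genes. ERVK elements are related to betaretroviruses. In mouse ESCs many of them are silenced through KRAB zinc finger proteins, the corepressor TRIM28 and the histone methyltransferase SETDB1.

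The values are those of 3 tables the authors deposited, 1 per cell type, in which treated and untreated libraries are compared and no value per library is held. A row sums all genomic copies of a subfamily, so it has no single position in the genome. The base mean is the mean normalised read count over the libraries of a table, not divided by length. The error after ± is the standard error (SE) of the log2 fold change. The numerator of the contrast is not stated in the sources used here, and it may not be the same in each table. A value above 0 is therefore placed on the positive side and one below 0 on the negative side, and neither is assigned to treated cells. A subfamily passed the test when the authors' adjusted p was under 0.05. The tables hold no genes, so the cell types could not be checked against marker genes here.

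Members past the test stood on both sides of the contrast in each cell type, with more of them in ESCs and macrophages than in NPCs. In ESCs 23 of 82 tested members passed per the authors' deposited table, 13 positive and 10 negative, which is 28.0%. The background, over all 1132 tested rows there, was 22.2%, with 10.2% positive and 12.0% negative. In NPCs 14 of 84 passed per the authors' deposited table, 5 positive and 9 negative, or 16.7%. There the share over all 1249 tested rows was 11.8%, with 4.96% positive and 6.81% negative. In macrophages 23 of 84 passed per the authors' deposited table, 13 positive and 10 negative, or 27.4%. Over all 1255 tested rows of that table it was 25.8%, with 13.3% positive and 12.5% negative. The shares of members lay within 6 percentage points of these backgrounds, while 48.4%, 19.1% and 40.5% of the tested rows of the remaining 199 ERVK subfamilies passed in ESCs, NPCs and macrophages. None of these differences in share was tested. The libraries are of bulk cells, so fewer cells of a type that holds such RNA and less RNA per cell cannot be told apart.

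The members' values were centred near 0 and mostly small. Their median log2 fold change was 0.04 in ESCs, 0.08 in NPCs and -0.0002 in macrophages, against 0.0019, 0.0009 and -0.0129 over all tested rows. The quartiles of the members ran from -0.16 to 0.23 in ESCs, from -0.23 to 0.27 in NPCs and from -0.18 to 0.18 in macrophages. At least 1 from 0 on the log2 scale and past the test were 3 members in ESCs, 2 in NPCs and 3 in macrophages, with 3.18%, 4.88% and 4.22% of all tested rows in the same place. Of the 86 members 43 passed in at least 1 table, 14 in at least 2 and 3 in all of them, which are 50.0%, 16.3% and 3.49%. Over all 1365 rows these shares were 39.4%, 11.1% and 2.42%. The 86 rows also include 2 that were tested nowhere, RLTR43A and RLTR43B, with base means of 0 in ESCs and NPCs, and 2 that carried no adjusted p in ESCs, RLTR12F and RLTR3_Mm, at base means of 7.35 and 2.65.

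**Figure D1:**
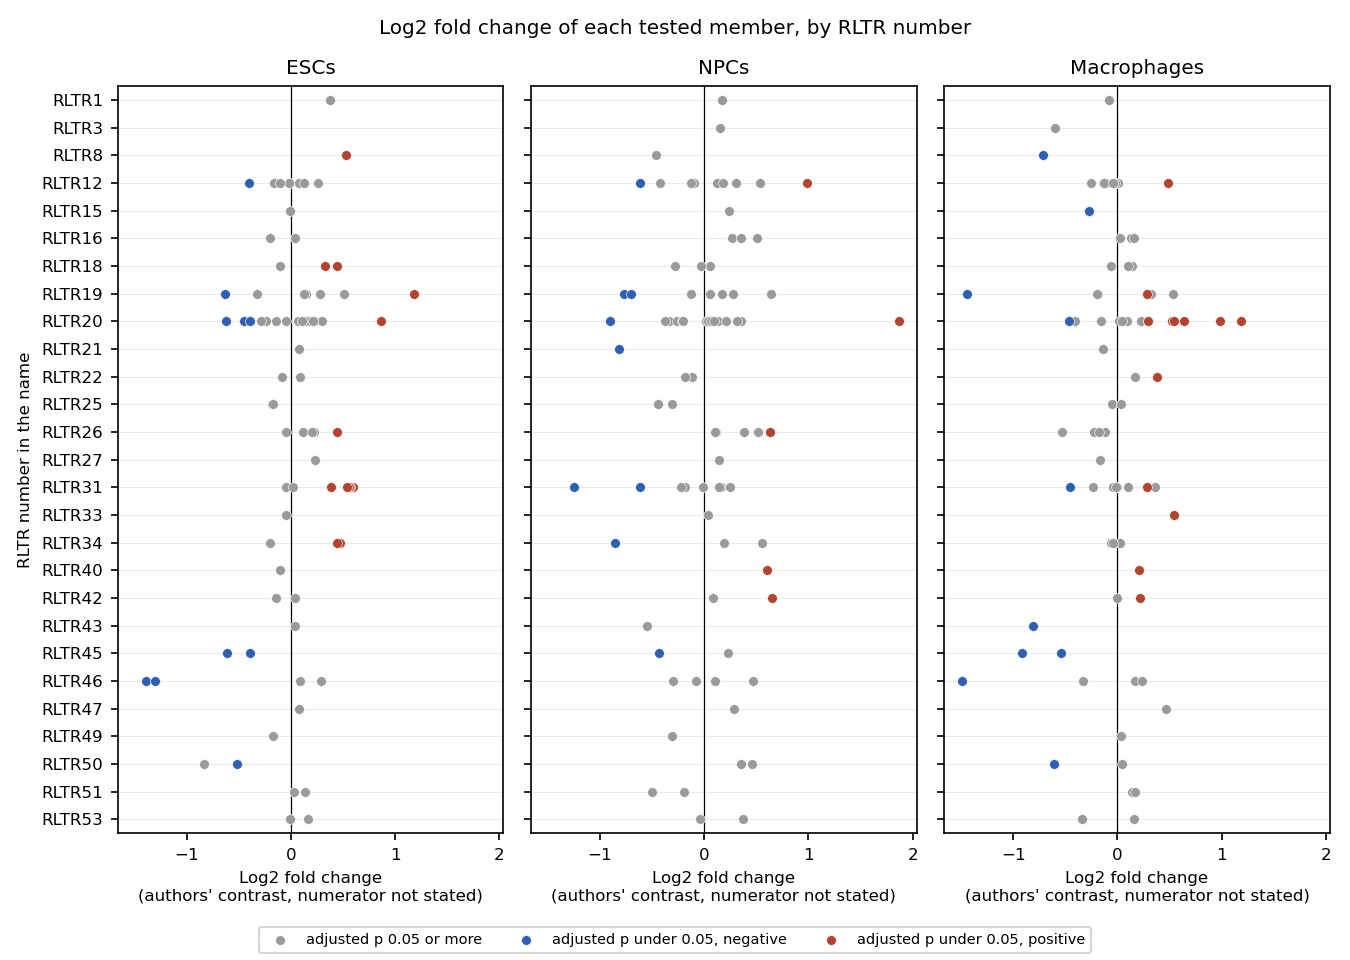
Each point is 1 tested member, placed by the RLTR number in its name (vertical) and its log2 fold change per the authors' deposited table (horizontal), with 1 panel per cell type. Red and blue points passed an adjusted p of 0.05 on the positive and negative side, and in ESCs 5 of the 8 RLTR31 points are red, while RLTR46A2 and RLTR46B lie furthest to the negative side, at -1.39 and -1.30.

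RLTR19-int, the internal part of the RLTR19 group, was the member with the most reads in NPCs and macrophages and came after RLTR45-int and RLTR45 in ESCs. It passed on the negative side in each of the tables, with base means of 7040 in ESCs, 4364 in NPCs and 4582 in macrophages. Its log2 fold change was -0.64 ± 0.08 in ESCs (adjusted p = 1.83e-14), a 1.56-fold difference between the groups per the authors' deposited table. In NPCs it was -0.77 ± 0.15 (adjusted p = 8.86e-06), a 1.70-fold difference per the authors' deposited table. In macrophages it was -1.44 ± 0.09 (adjusted p = 1.36e-53), a 2.71-fold difference per the authors' deposited table. A difference between cell types was computed here as 1 log2 fold change minus the other, with the SE of both combined, and p-values adjusted over all rows tested in both tables. By this test the macrophage value of RLTR19-int lay further from 0 than the ESC value, by 0.80 ± 0.12 on the log2 scale (ESCs minus macrophages, adjusted p = 7.87e-10), and than the NPC value, by 0.67 ± 0.17 (NPCs minus macrophages, adjusted p = 0.00259).

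Of the LTRs that share the number of RLTR19-int, RLTR19 passed on the same side in NPCs and on the other side in macrophages. RLTR19 lay at 0.14 ± 0.11 in ESCs, past no test, at -0.70 ± 0.18 in NPCs and at 0.29 ± 0.10 in macrophages per the authors' deposited table. Its adjusted p there was 0.00148 in NPCs and 0.0205 in macrophages. RLTR19D, with a base mean of 71.0 in ESCs, lay on the positive side there at 1.18 ± 0.21, a 2.27-fold difference per the authors' deposited table (adjusted p = 3.61e-07). In NPCs and macrophages RLTR19D had base means of only 6.33 and 5.29 and lay at 0.65 ± 0.43 and 0.32 ± 0.37, past no test, per the authors' deposited table. RLTR19A, RLTR19A2, RLTR19B and RLTR19C passed in none of the tables. RLTR19B came nearest, at -0.33 ± 0.13 in ESCs (adjusted p = 0.0603) and 0.53 ± 0.24 in macrophages (adjusted p = 0.0957), per the authors' deposited table. The files do not say which LTR subfamily flanks the copies counted as RLTR19-int, and reads over the border of an LTR and an internal part can enter either row.

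RLTR45 and its internal part took most of the members' reads in ESCs. RLTR45-int had a base mean of 102109 in the ESC table, 59.8% of the base means of all 86 members summed, and RLTR45 had 16393, or 9.59%. In NPCs the base means were 463 for RLTR45-int and 600.3 for RLTR45, and in macrophages 1861 and 672, each table being normalised by itself. Together the 86 members held 4.45% of the summed base means of all rows in ESCs, 1.52% in NPCs and 1.94% in macrophages. RLTR45-int lay on the negative side at -0.62 ± 0.10 in ESCs (adjusted p = 5.36e-08) and at -0.54 ± 0.11 in macrophages (adjusted p = 3.25e-06) per the authors' deposited table. In NPCs it lay at 0.23 ± 0.33 and did not pass, and its SE was the 19th largest of 452 rows of base mean 300 or more per the authors' deposited table. RLTR45, the LTR, passed on the negative side in every table, at -0.39 ± 0.11 in ESCs, -0.43 ± 0.16 in NPCs and -0.92 ± 0.07 in macrophages per the authors' deposited table. Its adjusted p there was 0.00345, 0.0477 and 1.38e-34, and the NPC call was lost, at 0.0506, when p-values were adjusted over every row that carries one. The LTR lay 0.53 ± 0.13 further from 0 in macrophages than in ESCs (ESCs minus macrophages, adjusted p = 7.12e-04).

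The other internal parts were RLTR18-int and RLTR42-int. RLTR18-int and RLTR18 both passed on the positive side in ESCs, at 0.33 ± 0.10 (adjusted p = 0.00664) and 0.45 ± 0.10 (adjusted p = 5.29e-05) per the authors' deposited table. RLTR18B lay at -0.11 ± 0.09 there and did not pass, per the authors' deposited table. None of these 3 passed in NPCs or macrophages, where RLTR18-int lay at -0.28 ± 0.20 and -0.06 ± 0.11 per the authors' deposited table. RLTR18 lay at 0.05 ± 0.15 and 0.14 ± 0.12 there, and its ESC value differed from neither (adjusted p = 0.156 and 0.146). The ESC value of RLTR18-int did not differ from that in NPCs (adjusted p = 0.0501). It differed from that in macrophages (adjusted p = 0.0438), but not with the sign of 1 table turned (adjusted p = 0.185). RLTR42-int passed on the positive side in NPCs at 0.65 ± 0.16 (adjusted p = 8.59e-04) and in macrophages at 0.22 ± 0.07 (adjusted p = 0.0147), and lay at -0.14 ± 0.09 in ESCs per the authors' deposited table. Its LTR RLTR42, with base means between 64.3 and 161, lay between -0.0006 and 0.09 and passed nowhere per the authors' deposited table.

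**Figure D2:**
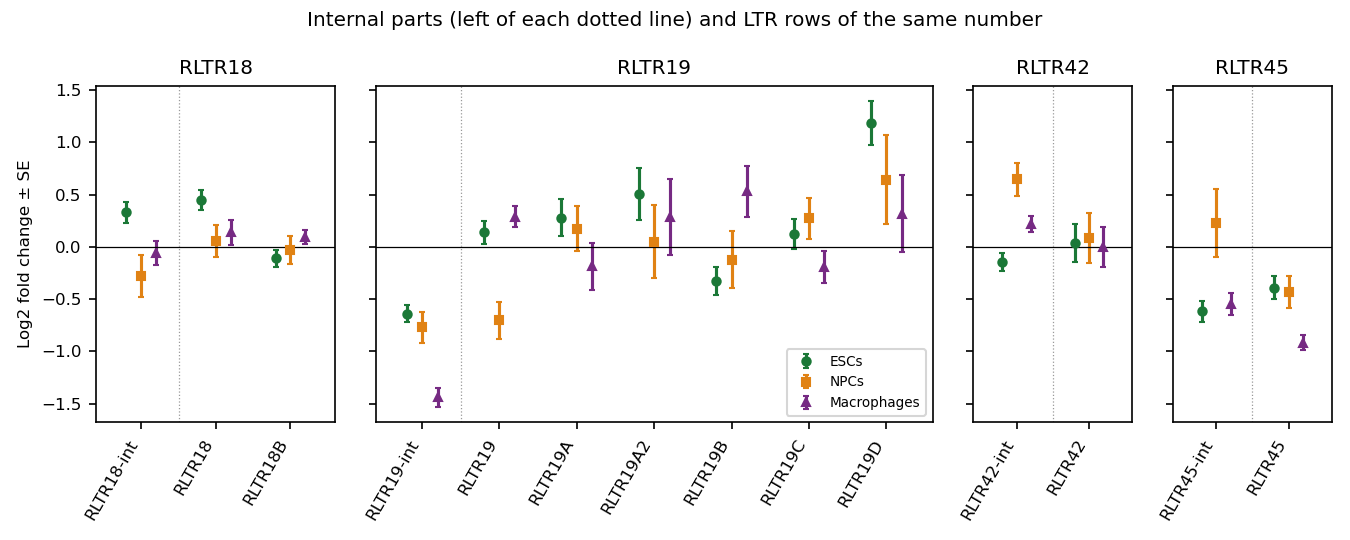
Log2 fold changes with their SE per the authors' deposited table for the 4 internal parts (left of the dotted line in each panel) and the LTR rows of the same number, in ESCs (circles), NPCs (squares) and macrophages (triangles). RLTR19-int lies below 0 in all the tables, down to -1.44 in macrophages, while RLTR19 lies at 0.29 there and RLTR19D at 1.18 in ESCs.

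The RLTR46 group contributed the lowest values of any member in ESCs and in macrophages. RLTR46A2 lay at -1.39 ± 0.20 and RLTR46B at -1.30 ± 0.23 in ESCs, differences of 2.62-fold and 2.46-fold per the authors' deposited table, at base means of 90.6 and 53.0. RLTR46B also passed in macrophages, at -1.50 ± 0.09 and a base mean of 791, a 2.82-fold difference (adjusted p = 1.79e-54) per the authors' deposited table. Its base mean in NPCs was 17.9, and its value of 0.46 ± 0.37 there did not pass, per the authors' deposited table. RLTR46B lay 1.96 ± 0.38 higher in NPCs than in macrophages (NPCs minus macrophages, adjusted p = 1.07e-05), and 1.77 ± 0.44 lower in ESCs than in NPCs (ESCs minus NPCs, -1.77, adjusted p = 8.82e-04), if the tables are oriented alike. With the sign of 1 table turned the first became -1.03 (adjusted p = 0.0353) and the second -0.84, past no test (adjusted p = 0.199). RLTR46A2 had base means of only 11.4 in NPCs and 2.36 in macrophages, and lay at -0.08 ± 0.43 and 0.23 ± 0.35 per the authors' deposited table. RLTR46 and RLTR46A, with base means of at most 16.2, passed in no table.

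Of the 8 RLTR31 LTRs 5 passed on the positive side in ESCs and none on the negative side, beside 10.2% of all tested ESC rows on the positive side. The group median was 0.46 there, against 0.0019 over all tested rows. The other 3 lay near 0 and did not pass, RLTR31A_Mm and RLTR31B2 at -0.05 each and RLTR31D_MM at 0.02, per the authors' deposited table. RLTR31_Mur, RLTR31B_Mm, RLTR31C_MM and RLTR31M lay at 0.59 ± 0.12, 0.57 ± 0.12, 0.56 ± 0.10 and 0.53 ± 0.15 per the authors' deposited table, and RLTR31_Mm at 0.39 ± 0.14. The adjusted p of RLTR31_Mur was 5.85e-06 there, that of RLTR31B_Mm 6.83e-05 and that of RLTR31C_MM 3.02e-07, while that of RLTR31_Mm was 0.0324. In NPCs RLTR31_Mur and RLTR31B_Mm passed on the other side, at -0.62 ± 0.17 (adjusted p = 0.00569) and -1.25 ± 0.24 (adjusted p = 6.32e-06) per the authors' deposited table. RLTR31_Mur was also negative in macrophages, at -0.45 ± 0.10 (adjusted p = 1.11e-04), and RLTR31D_MM was positive there at 0.28 ± 0.10 (adjusted p = 0.0246), per the authors' deposited table. The group's median was -0.10 in NPCs and -0.0046 in macrophages. The 5 RLTR31 members past the test in ESCs had base means between 196 and 558 in that table.

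RLTR31_Mur was the member that passed in every table on unlike sides. Its ESC value exceeded its NPC value by 1.21 ± 0.21 (ESCs minus NPCs, adjusted p = 3.02e-07) and its macrophage value by 1.05 ± 0.16 (ESCs minus macrophages, adjusted p = 6.60e-10). RLTR31B_Mm differed by 1.82 ± 0.27 between ESCs and NPCs (ESCs minus NPCs, adjusted p = 7.31e-10) and by -1.61 ± 0.31 between NPCs and macrophages (NPCs minus macrophages, adjusted p = 8.45e-06). These differences take the tables to be oriented alike. With the sign of 1 table turned, the difference of RLTR31_Mur was 0.14 for ESCs against macrophages and -0.02 for ESCs against NPCs, past no test, with adjusted p of 0.549 and 0.966. That of RLTR31B_Mm was then -0.68 for ESCs against NPCs, past no test (adjusted p = 0.0643), and -0.89 for NPCs against macrophages (adjusted p = 0.0236). As the orientation is not stated, neither RLTR31_Mur in these pairs nor RLTR31B_Mm in ESCs and NPCs can be said to differ between cell types.

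**Figure D3:**
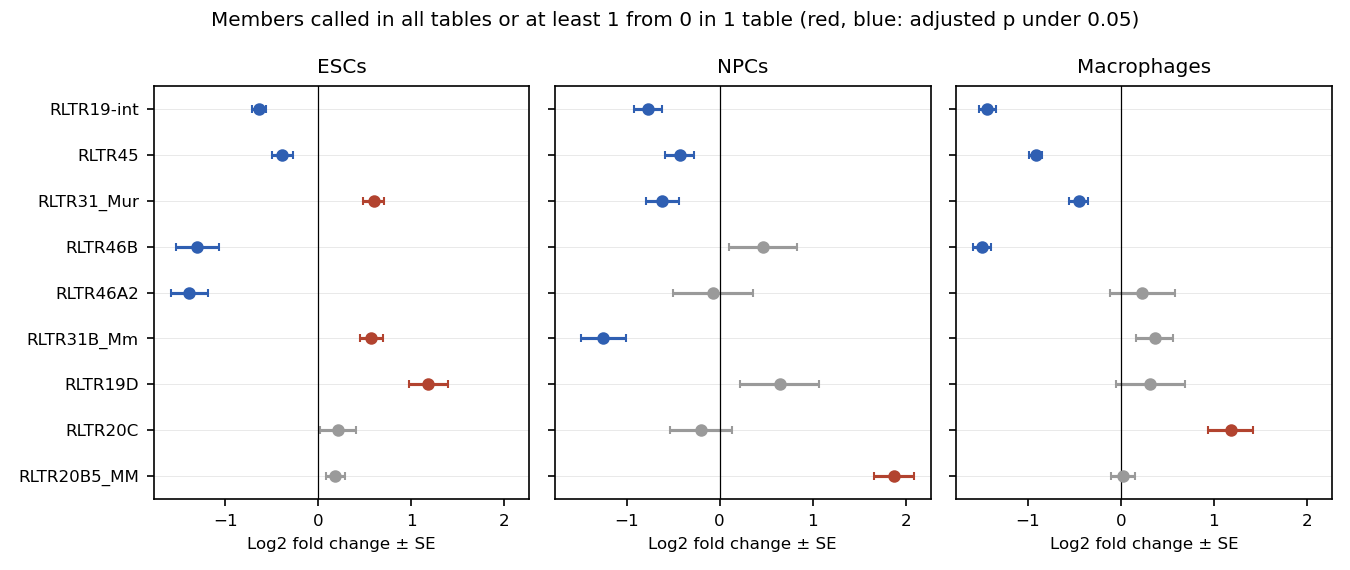
Log2 fold change with its SE per the authors' deposited table (horizontal) of the 9 members that passed in all tables, or passed at a value at least 1 from 0 in 1 table, with 1 panel per cell type. Coloured points passed an adjusted p of 0.05, and RLTR19-int and RLTR45 lie on the negative side in each panel, while RLTR31_Mur lies at 0.59 in ESCs and at -0.62 and -0.45 in NPCs and macrophages.

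RLTR20, the group with the most members, showed unlike values in the tables. In macrophages 6 of its 16 LTRs passed on the positive and 1 on the negative side, beside 13.3% and 12.5% of all tested rows there. Its values were above 0 for 12 of the 16, with a group median of 0.16 against -0.0129 over all tested rows. RLTR20C lay at 1.18 ± 0.24 (adjusted p = 1.29e-05), a 2.27-fold difference at a base mean of 28.5 per the authors' deposited table. RLTR20A3_MM lay at 0.64 ± 0.14 there (adjusted p = 2.53e-05), RLTR20B3A_MM at 0.54 ± 0.15 and RLTR20B2 at 0.52 ± 0.15, per the authors' deposited table. RLTR20A4, the member of this group with the most reads at a base mean of 3578, lay at 0.99 ± 0.34 (adjusted p = 0.0200) per the authors' deposited table. The SE of RLTR20A4 was the 5th largest of 426 macrophage rows of base mean 300 or more, whose median SE was 0.08. In ESCs and NPCs RLTR20A4 lay at 0.15 ± 0.07 and 0.07 ± 0.12 and did not pass per the authors' deposited table. With the tables taken as oriented alike, its difference passed in neither pair with macrophages. It was -0.84 ± 0.35 for ESCs minus macrophages (adjusted p = 0.0672) and -0.92 ± 0.37 for NPCs minus macrophages (adjusted p = 0.0831).

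In ESCs 3 of the 4 RLTR20 LTRs past the test were negative. That is 1 positive and 3 negative of 16, beside 10.2% and 12.0% of all tested rows there. Of all 16 values, however, 9 were above 0 and 7 below, with a group median of 0.09. RLTR20B4_MM, RLTR20B1 and RLTR20D lay at -0.62 ± 0.15, -0.45 ± 0.09 and -0.40 ± 0.10 per the authors' deposited table. There the adjusted p was 2.72e-04 for RLTR20B4_MM, 4.34e-06 for RLTR20B1 and 4.31e-04 for RLTR20D. RLTR20A1, at a base mean of 64.0, was positive at 0.86 ± 0.23 (adjusted p = 0.00177) per the authors' deposited table. Of these, RLTR20B4_MM was negative in macrophages too, at -0.47 ± 0.18 (adjusted p = 0.0375), and RLTR20D was positive there at 0.29 ± 0.12 (adjusted p = 0.0471) per the authors' deposited table. In NPCs 1 RLTR20 LTR of 16 passed on each side, beside 4.96% positive and 6.81% negative of all tested rows there. RLTR20B5_MM lay at 1.87 ± 0.22, a 3.66-fold difference (adjusted p = 4.61e-16) at a base mean of 635, per the authors' deposited table. Among the tested members that is the value furthest from 0 in any of the tables. RLTR20B5_MM lay at 0.18 ± 0.10 in ESCs and 0.02 ± 0.13 in macrophages per the authors' deposited table. It differed by -1.69 ± 0.24 for ESCs minus NPCs (adjusted p = 9.42e-11) and by 1.85 ± 0.25 for NPCs minus macrophages (adjusted p = 2.62e-11). These signs take the tables to be oriented alike. With the second table of each pair turned, the differences were 2.05 (adjusted p = 6.07e-16) and 1.89 (adjusted p = 2.73e-12). RLTR20A1 was negative in NPCs, at -0.90 ± 0.32 and a base mean of 27.5 (adjusted p = 0.0385) per the authors' deposited table.

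The remaining NPC members past the test came from several numbers. RLTR12B2, at a base mean of 92.9, lay at 0.99 ± 0.26 (adjusted p = 0.00336), and RLTR26_Mus at 0.64 ± 0.16 (adjusted p = 0.00196) per the authors' deposited table. RLTR40 lay at 0.60 ± 0.17 in NPCs (adjusted p = 0.00600) and at 0.21 ± 0.06 in macrophages (adjusted p = 0.00659) per the authors' deposited table. RLTR34D_MM at -0.86 ± 0.26 (adjusted p = 0.0135), RLTR21 at -0.82 ± 0.20 (adjusted p = 9.86e-04) and RLTR12C at -0.62 ± 0.20 were negative, per the authors' deposited table. All 5 RLTR26 LTRs had values above 0 in NPCs and below 0 in macrophages, with medians of 0.39 and -0.22. RLTR26_Mus alone of them passed in NPCs, however, and none in macrophages. This pattern over the group was not tested, and related subfamilies can share reads. The difference of RLTR26_Mus was 0.85 ± 0.19 (NPCs minus macrophages, adjusted p = 2.76e-04), but 0.42 with the sign of 1 table turned, past no test (adjusted p = 0.122).

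In ESCs, RLTR34B_MM and RLTR34C_MM were positive at 0.47 ± 0.11 (adjusted p = 1.08e-04) and 0.44 ± 0.13 (adjusted p = 0.00428) per the authors' deposited table. The remaining LTR of that number, RLTR34D_MM, lay at -0.20 ± 0.14 there and did not pass (adjusted p = 0.344), per the authors' deposited table. RLTR8 was positive in ESCs at 0.53 ± 0.14 (adjusted p = 0.00167) and negative in macrophages at -0.72 ± 0.10 (adjusted p = 1.42e-10) per the authors' deposited table. Its difference was 1.24 ± 0.18 (ESCs minus macrophages, adjusted p = 4.77e-11). With the sign of 1 table turned this became -0.19, past no test. RLTR50B was negative in ESCs at -0.52 ± 0.13 and in macrophages at -0.61 ± 0.21 per the authors' deposited table. RLTR12H passed in ESCs on the negative side at -0.41 ± 0.13 (adjusted p = 0.0133), and RLTR26 on the positive side at 0.45 ± 0.17 (adjusted p = 0.0434), per the authors' deposited table. The call of RLTR26 was lost, at 0.0512, when p-values were adjusted over every row that carries one.

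In macrophages, RLTR33 and RLTR12E were positive at 0.55 ± 0.08 (adjusted p = 5.48e-11) and 0.49 ± 0.08 (adjusted p = 1.06e-07) per the authors' deposited table, and neither passed in ESCs or NPCs. The difference of RLTR33 was -0.59 ± 0.12 (ESCs minus macrophages, adjusted p = 6.27e-06). With the sign of the macrophage table turned it became 0.50 (adjusted p = 1.31e-04), so its direction depends on the orientation. RLTR43C was negative at -0.81 ± 0.18 (adjusted p = 1.00e-04), at a base mean of 65.7 per the authors' deposited table. RLTR15 lay at -0.27 ± 0.07 (adjusted p = 0.00211) and RLTR22_Mus at 0.38 ± 0.11 (adjusted p = 0.00499) per the authors' deposited table.

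Several members with many reads did not pass in some or all of the tables. RLTR25B and RLTR16 passed in none, while RLTR21 passed in NPCs and RLTR31D_MM in macrophages, as given above. RLTR25B, with base means of 3340 in ESCs, 2641 in NPCs and 2711 in macrophages, lay at -0.17 ± 0.08, -0.44 ± 0.21 and 0.03 ± 0.09 per the authors' deposited table. RLTR21, at a base mean of 3157 in macrophages, lay at -0.13 ± 0.24 there per the authors' deposited table, with the 11th largest SE of the 426 rows of base mean 300 or more. RLTR16, at a base mean of 895 there, had the 4th largest SE of these rows, 0.35, and lay at 0.13 per the authors' deposited table. RLTR31D_MM lay at 0.02 ± 0.07 in ESCs and 0.25 ± 0.12 in NPCs per the authors' deposited table. The members that passed nowhere and were tested, 39 in ESCs and 41 each in NPCs and macrophages, lay between -0.83 and 0.50, between -0.50 and 0.50 and between -0.60 and 0.53. They include every RLTR16, RLTR25, RLTR47, RLTR49, RLTR51 and RLTR53 row, as well as RLTR1F_Mm and RLTR27. A p that misses the threshold does not show that such a member was alike in both groups.

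**Figure D4:**
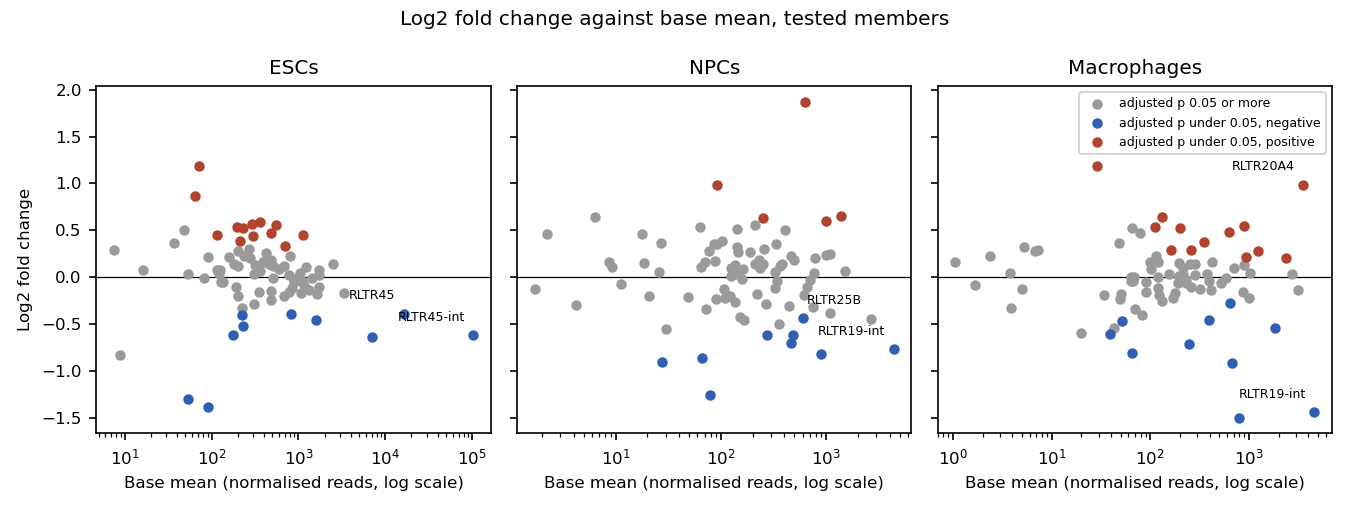
Log2 fold change per the authors' deposited table (vertical) against base mean in normalised reads (horizontal, log scale) for the tested members, with 1 panel per cell type and the 2 members of highest base mean named. RLTR45-int stands alone at a base mean of 102109 in ESCs, and RLTR20A4 and RLTR19-int, both past the test, lie furthest right in macrophages at 0.99 and -1.44.

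The SE of members was larger at a base mean under 100 than at 300 or more, and was largest in NPCs. The medians in these ranges were 0.23 and 0.10 in ESCs, 0.33 and 0.17 in NPCs and 0.22 and 0.09 in macrophages. In macrophages the SE fell again at the lowest base means, so it is not a plain measure of precision there. The median SE of the tested members was 0.12 in ESCs, 0.21 in NPCs and 0.14 in macrophages, against 0.14, 0.27 and 0.17 over all tested rows. The smallest absolute value that passed among members was 0.33 in ESCs, 0.43 in NPCs and 0.21 in macrophages per the authors' deposited table. No NPC member thus passed at a value as small as that of RLTR40 in macrophages, 0.21. Over all tested NPC rows the smallest absolute value that passed was 0.36, and no limit of detection was computed. Of members with a base mean under 100, 4 of 12 passed in ESCs (33.3%, against 10.6% of all such rows), 4 of 27 in NPCs (14.8%, against 8.15%) and 4 of 29 in macrophages (13.8%, against 12.6%). Between 100 and 300 it was 9 of 24 in ESCs (37.5%, against 26.3%), 2 of 27 in NPCs (7.41%, against 18.2%) and 6 of 28 in macrophages (21.4%, against 40.9%). At a base mean of 300 or more it was 10 of 46 in ESCs (21.7%, against 29.9%), 8 of 30 in NPCs (26.7%, against 13.3%) and 13 of 27 in macrophages (48.1%, against 38.0%). The members' shares thus lay above those of all rows in some of these ranges and below them in others. Names with a mouse or murine suffix (_Mm, _MM, _Mus or _Mur) belong to 31 members. Of these 7 of 30 tested passed in ESCs, 6 positive and 1 negative, against 7 positive and 9 negative of 52 among the other members. In NPCs it was 2 and 3 of 31 against 3 and 6 of 53, and in macrophages 4 and 2 of 31 against 9 and 8 of 53. With and without the suffix, the shares past the test were 23.3% and 30.8% in ESCs and 16.1% and 17.0% in NPCs. In macrophages they were 19.4% and 32.1%. Over all tested rows 22.2%, 11.8% and 25.8% passed in ESCs, NPCs and macrophages. The contrast by suffix was not tested.

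A test of the difference between cell types was passed by 22 of 82 members for ESCs against macrophages, by 15 of 82 for ESCs against NPCs and by 14 of 84 for NPCs against macrophages. These are 26.8%, 18.3% and 16.7%, against 23.7%, 12.6% and 12.4% of all rows tested in both tables. With the sign of 1 table turned, 22, 22 and 18 members differed, of which 9, 7 and 7 were among those above. The cell types differ in dose too, and macrophages in strain, so these cannot be told apart. Among the members past the test in both tables of a pair, 6 lay on the same side and 3 on opposite sides for ESCs and macrophages, 2 and 3 for ESCs and NPCs, and 5 and 1 for NPCs and macrophages. Over all rows the counts were 72 and 34, 37 and 15, and 44 and 15. Turning the sign of 1 table of a pair would swap same and opposite sides and turn the signs of the correlations below. The 9 shared by ESCs and macrophages are 39.1% of the members past the test in each of these tables. The 5 shared by ESCs and NPCs are 21.7% of the ESC and 35.7% of the NPC members, and the 6 shared by NPCs and macrophages 42.9% of the NPC and 26.1% of the macrophage members. Over all rows the corresponding shares were 42.4% and 33.3%, 20.8% and 36.9%, and 40.1% and 18.4%. Across members, Pearson's r and Spearman's rho of the log2 fold changes were 0.25 and 0.03 for ESCs and macrophages (n = 82), -0.06 and -0.03 for ESCs and NPCs (n = 82) and 0.02 and -0.07 for NPCs and macrophages (n = 84). Over all rows tested in both tables they were 0.20 and 0.14, 0.13 and 0.10, and 0.35 and 0.20. Members are not independent, since related subfamilies can share reads, and values of a table share its libraries.

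**Figure D5:**
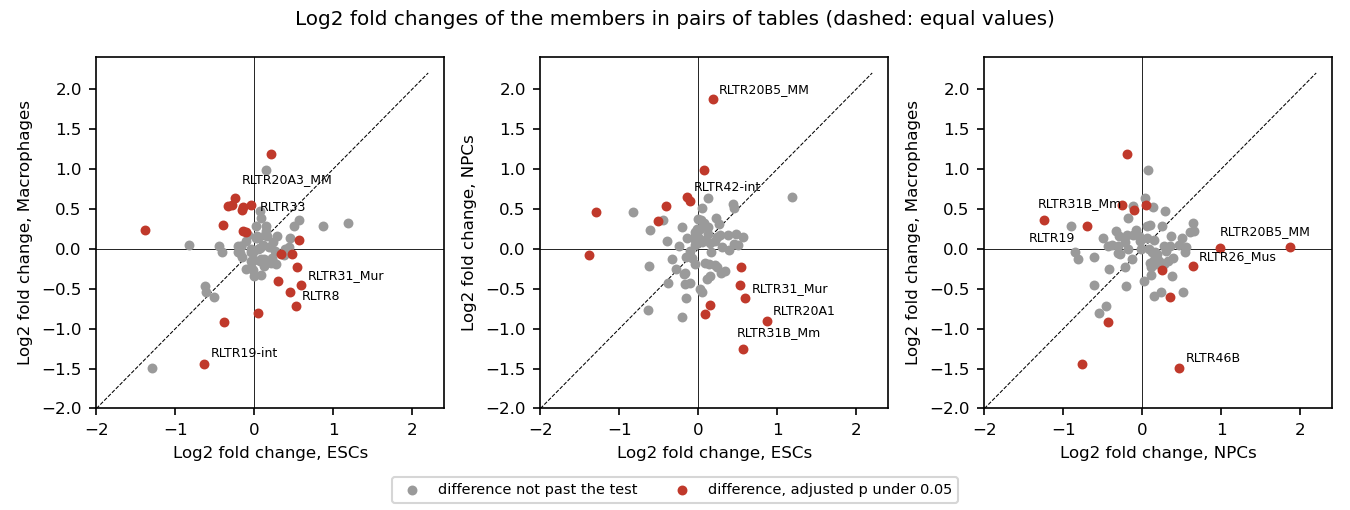
Each point is 1 member tested in both tables of a pair, placed by its log2 fold change per the authors' deposited table of each cell type, with equal values on the dashed line. Red points (22, 15 and 14 from left to right) passed the test of the difference at an adjusted p of 0.05, and the 5 of smallest adjusted p are named in each panel.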

How the data were processed

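Poly(A) RNA of 18 libraries was sequenced with a stranded paired-end protocol, per the labels' protocols. The submitters' processing notes name deepTools, DESeq2, featureCounts, Bowtie2, TopHat2 2.0.13 and Trim Galore, and the build mm10, but not what each was used for. Counting rules for reads that match several copies, strand use and depth per library are not given in the sources used here.

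Per the file headers, each deposited table has the columns DESeq2 writes. Its base mean (a signal of normalised reads), the log2 fold change with its SE on the log2 scale, the Wald statistic (a score), the p-value and the adjusted p-value were all computed by the authors. Each adjusted p-value equalled, within a relative tolerance of 1e-06, a Benjamini-Hochberg value over the tested rows of its table. Values of rows with few reads may be shrunken towards 0, which is not stated in the sources used here and was not tested. In macrophages the SE fell at the lowest base means. It was 0.37 for RLTR46A (base mean 3.89), 0.29 for RLTR46 (1.06) and 0.15 for RLTR43B (0.178). If values are shrunken, fold differences are understated for such rows. A difference between tables could then be too small, or too large where only 1 of the tables has few reads. RLTR46B, at base means of 17.9 in NPCs and 791 in macrophages, is such a row. No library values were given, so no model was refitted and no replicate was left out.

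Computed here with Python 3.11.15, scipy 1.17.1 and pandas 2.3.3 were the counts, the shares and the differences between tables. A difference is the first log2 fold change minus the second. It was divided by its SE, the square root of the sum of both squared SEs, for a two-sided normal p, adjusted with Benjamini-Hochberg over all rows tested in both tables. Whether this normal p holds for shrunken values, or for SEs from groups of 3 libraries, was not tested.

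Named were members past the test at a value at least 1 from 0 on the log2 scale, the 8 of smallest adjusted p among the others in each table, the 5 of highest base mean in each table, those called in all tables, internal parts with the LTRs of their number, and the 5 of smallest adjusted p for each difference. RLTR12C, RLTR12H, RLTR15, RLTR20B2, RLTR20B3A_MM, RLTR22_Mus, RLTR26, RLTR31_Mm, RLTR31M, RLTR34C_MM, RLTR50B, RLTR16 and the rows that passed nowhere were added after their values were seen. Members and lists were chosen with earlier results of these data known.

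The alternatives were adjustment over rows of base mean 50 or more or over every row with a p, centring on the median, a threshold of 0.01, leaving out internal parts or members under a base mean of 50, and turning the sign of 1 table.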

Additional observations from a re-analysis of the deposited data

Results flagged for a closer look

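For each pair of cell types, the 5 members of smallest adjusted p in the test of the difference between their log2 fold changes are set out here. Each difference takes the tables to be oriented alike, and its part due to dose or strain cannot be told apart from that of cell type. For ESCs minus macrophages the differences were 1.24 for RLTR8, 1.05 for RLTR31_Mur, 0.80 for RLTR19-int, -0.88 for RLTR20A3_MM and -0.59 for RLTR33. For ESCs minus NPCs they were -1.69 for RLTR20B5_MM, 1.82 for RLTR31B_Mm, 1.21 for RLTR31_Mur, 1.77 for RLTR20A1 and -0.79 for RLTR42-int. For NPCs minus macrophages they were 1.85 for RLTR20B5_MM, -1.61 for RLTR31B_Mm, 1.96 for RLTR46B, -0.99 for RLTR19 and 0.85 for RLTR26_Mus. With the sign of 1 table turned, 7 of these 15 still passed: RLTR19-int and RLTR33 for ESCs against macrophages, RLTR20B5_MM and RLTR42-int for ESCs against NPCs, and RLTR20B5_MM, RLTR31B_Mm and RLTR46B for NPCs against macrophages. The signs of these differences depend on the orientation, however. With the second table of the pair turned, RLTR19-int became -2.08 and RLTR33 0.50. For ESCs against NPCs RLTR20B5_MM became 2.05 and RLTR42-int 0.51, and for NPCs against macrophages RLTR46B became -1.03. Which cell type had the higher value thus cannot be told without the orientation. RLTR20A1 in ESCs against NPCs, and RLTR31B_Mm and RLTR46B in NPCs against macrophages, had a base mean under 50 in 1 of the tables.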

How the results depend on the processing

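No paired analysis was possible because the tables hold no values per library, and for the same reason no replicate could be left out. Under the alternatives the count of members past the test stayed within 1.5 times the reported one, at 20 to 23 in ESCs, 10 to 14 in NPCs and 16 to 23 in macrophages. A threshold of 0.01 left 13 members differing between ESCs and macrophages, against 22, and 8 between NPCs and macrophages, against 14, since fewer pass a stricter threshold. It gave 10 for ESCs against NPCs, against 15. The other alternatives gave 21 or 22, 14 to 22 and 12 to 18 for these pairs. Adjusted over every row with a p, RLTR45 in NPCs (0.0506) and RLTR26 in ESCs (0.0512) lost their calls. Adjusted over rows of base mean 50 or more, RLTR16 in NPCs (0.0434) and RLTR47 in macrophages (0.0495) gained one, and RLTR20A1 in NPCs and RLTR20C and RLTR50B in macrophages fell below that base mean. Centring turned the sign of RLTR42 in macrophages, a value next to 0 (adjusted p = 0.972). The depth of each library is unknown here, and precision is limited by the SE of each value, which was largest in NPCs.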
